A study of Mus musculus with 32 samples.

Results

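Gene expression in the prefrontal cortex of female Withdrawal Seizure-Resistant (WSR) mice was compared between ethanol withdrawal and control treatment, with 4 EtOH arrays against 4 air arrays. These 8 arrays are all arrays of the series labelled female and WSR, out of 32 that also cover males and the Withdrawal Seizure-Prone (WSP) line. Both lines were bred from the heterogeneous HS/Ibg mouse stock by selecting for mild (WSR) or severe (WSP) seizures after ethanol, each as a pair of independently bred populations. The female WSR arrays came from WSR-1 and WSR-2, with 2 air and 2 EtOH arrays from each, and an array is named here by population and pool (2-1 is WSR-2, pool 1).

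Female WSR EtOH mice received 1.5 g/kg ethanol by injection and then 72 h of ethanol vapour, and tissue was taken at 8 h of withdrawal. In the groups used for comparison, WSP-2 EtOH mice of both sexes received a higher dose by the labels, and the others 1.5 g/kg. Air mice were placed in air chambers and received no ethanol. All mice, adult and without earlier drug exposure, received 68.1 mg/kg pyrazole, an inhibitor of alcohol dehydrogenase, so both groups carry that treatment. RNA of 2 mice was pooled for each array, so the arrays of a group differ by pool and by population. The study's own design joins the populations of a line, and nothing in the labels separates a batch of arrays.

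Withdrawal after long ethanol exposure leaves the brain in a state of raised excitability, and mice differ by inheritance in how far this leads to seizures. The prefrontal cortex, which governs planning and the control of behaviour, sends glutamatergic output to regions that regulate drug intake and stress. In other studies, ethanol exposure has been linked to chaperones, chromatin-modifying enzymes, neuroimmune genes and synaptic genes in the brain, and such groups are described below.

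The arrays carry 4696 spotted cDNA clones that were hybridised with 33P-labelled cDNA. Of these clones, 1108 carry a gene title and 3588 are untitled or named only as expressed sequence tags (ESTs). Values are given as normalised log2 signal, on which a difference of 1 is a doubling, and differences are EtOH minus air. An offset added before the logarithm sets a floor of 5.64, and the mean of 84.6% of the probes lay less than 1 log2 unit above it, so differences of dim probes are compressed. On all 8 arrays, 1574 probes were above background, and 220 were above it on none. The share of spots above background ran from 51.1% to 72.3% and was higher in the 4 WSR-1 arrays (mean 69.0%) than in the 4 WSR-2 arrays (mean 55.0%). Between treatments it averaged 63.8% ± 9.57 (SD, n = 4) in EtOH and 60.2% ± 8.23 in air (exact permutation test, two-sided, p = 0.657, adjusted over 3 array measures 0.657). Median raw signal on the log2 scale was 4.12 ± 0.159 in EtOH and 3.91 ± 0.112 in air, and this difference did not pass either (exact p = 0.0857, adjusted 0.257). The array background was 14.7 ± 1.95 intensity units in EtOH and 13.1 ± 1.02 in air (exact p = 0.229, adjusted 0.344).

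No probe differed between EtOH and air in female WSR mice after adjustment over all probes (limma, Benjamini-Hochberg, 4696 tested, smallest adjusted p = 0.9996, or 0% called). At an unadjusted p under 0.05 stood 77 probes with higher means (1.64%) and 64 with lower means (1.36%), and that total of 141 was 93 without air array 2-2. Higher means made up 54.6% of the 141, and 76.7% of 73 with arrays scaled to equal medians, 79.3% of 92 with cyclic loess and 76% of 50 in the authors' deposited log2 values. It was 37.6% without air 2-2 and 39.6% without air 2-1. With the female WSR arrays alone in the fit it was 46.9%, and among probes at or above the median level 50%. Which direction prevailed thus depended on single arrays and on the processing. The 4 EtOH values lay wholly above the 4 air values for 58 probes (1.24%) and wholly below for 59 (1.26%). Differences were small: their SD over all probes was 0.134, 20 probes stood beyond 0.5 in either direction and 0 beyond 1. The median standard error of a difference was 0.124, and 0.154 among the 1174 brightest probes. Among the probes with the smallest p was an EST weakly similar to TDAG51, at field 1 grid f column 25 row 6. It read 6.60, 6.48, 6.79 and 6.55 in air (arrays 1-1, 1-2, 2-1 and 2-2) and 5.97, 6.19, 6.38 and 6.15 in EtOH. No EtOH array reached the lowest air array, with a difference of -0.44 (SE 0.12) that was alike in WSR-1 (-0.46) and WSR-2 (-0.41). Another EST, at field 2 grid e column 2 row 4, read 6.79, 6.74, 6.55 and 6.62 in air and 7.03, 6.82, 7.51 and 7.14 in EtOH, again without overlap (0.45, SE 0.13). What follows describes the genes with the smallest unadjusted p and fixed gene groups, and none of these differences passed the adjusted test.

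Among the brighter named genes whose groups did not overlap were a chaperone, an antigen-presentation gene, a synaptic vesicle gene and a pair of adaptor or DNA-binding protein genes. Dnajb1 encodes heat shock protein 40, a co-chaperone that stimulates Hsp70. Its air values, in the order 1-1, 1-2, 2-1 and 2-2, were 9.42, 9.22, 9.34 and 9.33, and its EtOH values were 9.44, 9.73, 9.66 and 9.58. All 4 EtOH arrays lay above all 4 air arrays, though EtOH 1-1 exceeded the highest air array only narrowly. The difference was 0.28 (SE 0.13), equal in WSR-1 (0.27) and WSR-2 (0.29) to within its standard error.

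Cd74 encodes the invariant chain, which guides class II histocompatibility molecules to the compartment where they load peptide. Its air values were 10.79, 10.65, 10.67 and 10.90, and its EtOH values were 10.29, 10.22, 10.58 and 10.40. Every EtOH array was below every air array, with the smallest gap between EtOH 2-1 and air 1-2. The difference was -0.38 (SE 0.14, 95% interval -0.67 to -0.09), with -0.46 in WSR-1 and -0.30 in WSR-2. Cd74 is strongly expressed by microglia and other antigen-presenting cells in brain, and the 4 measured microglia and macrophage markers (among them Cd14, Fcer1g and Mpeg1) did not share its direction. Their summed signal was 233 to 255 on the air arrays and 240 to 269 on the EtOH arrays, and 4 of 4 had higher EtOH means, with 2 of the 4 above background on at least 4 of the 8 arrays. Each sum includes the offset of 50 added to every probe, so for markers near the floor it shows little about cell content. In tissue RNA, fewer cells of a type and less RNA per cell cannot be told apart.

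Syt4 encodes synaptotagmin 4, a vesicle protein that regulates release in neurons and glia. Its air values were 7.10, 7.24, 6.88 and 7.27 and its EtOH values 7.32, 7.54, 7.34 and 7.37. The groups did not overlap, and air 2-1 was the lowest of the 8 arrays (difference 0.27, SE 0.14). Bdp, named for its likeness to the Bright and dead ringer DNA-binding proteins, stood at 8.93, 8.84, 9.07 and 9.03 in air and 9.11, 9.32, 9.28 and 9.37 in EtOH. Its highest air array and lowest EtOH array were 9.07 and 9.11, so the separation was narrow (difference 0.30, SE 0.15). Semcap1, a PDZ-domain protein that binds the cytoplasmic tail of a semaphorin, stood at 9.57, 9.46, 9.56 and 9.61 in air. On the EtOH arrays it stood at 9.27, 9.41, 9.18 and 9.28, all below air (difference -0.26, SE 0.13).

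**Figure D1:**
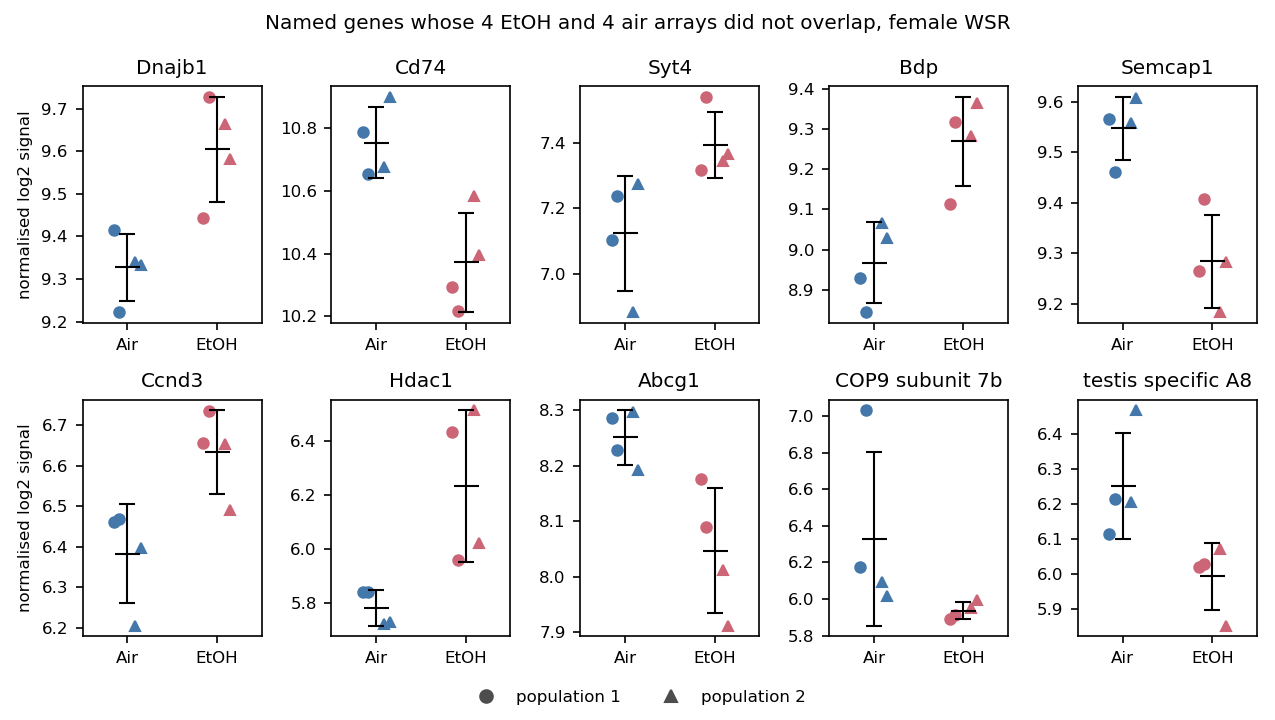
Normalised log2 signal of 10 named genes on the 4 air and 4 EtOH arrays of female WSR mice, each point an array (circles WSR-1, triangles WSR-2), with horizontal bars for the mean and error bars for ± 1 SD. These are the genes among the 24 leading and the list genes whose groups did not overlap, so the separation is the basis of the selection. The vertical axes differ between genes and do not start at 0.

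Hdac1 encodes a histone deacetylase, an enzyme that tightens chromatin, and its probe was dim and above background on the EtOH arrays alone. It stood at 5.84, 5.84, 5.72 and 5.73 in air, where 0 of 4 arrays were above background, and at 6.43, 5.96, 6.51 and 6.02 in EtOH, where 4 of 4 were. EtOH 1-1 and 2-1 were the high arrays, and the fitted difference was 0.45 (SE 0.14). With air values raised to the lowest measurable signal of each array, the EtOH mean was 1.26-fold higher, an estimate that does not allow for that error. Rgs2, a GTPase activator that turns off G alpha q signalling, had air values of 5.79, 6.02, 5.75 and 5.71 and EtOH values of 6.002, 6.12, 6.52 and 6.25. The 2 WSR-2 EtOH arrays carried most of this difference (0.66 in WSR-2 against 0.16 in WSR-1), and EtOH 1-1 lay below air 1-2. Rpl36, a protein of the large ribosomal subunit, had EtOH values of 6.11, 6.20, 5.89 and 6.44 against 5.87, 5.87, 5.93 and 5.78 in air, and EtOH 2-1 lay inside the air range.

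The 12 titled genes per direction with the smallest p among the brighter probes included Dnajb1, Cd74, Syt4, Bdp and Semcap1, and others whose values rested on few arrays. Tsc2 encodes tuberin, which restrains mTOR signalling together with hamartin. It stood at 6.28, 6.48, 6.17 and 6.26 in air and at 7.17, 6.53, 6.25 and 6.72 in EtOH. EtOH 1-1 stood alone at the top, and EtOH 2-1 lay within the air range (difference 0.37, SE 0.16). Sema4d, an axon guidance ligand, read 5.76, 5.75, 5.93 and 5.92 in air and 7.19, 6.12, 5.96 and 5.92 in EtOH. Its difference of 0.46 (SE 0.20) came from WSR-1, at 0.90, with 0.02 in WSR-2. The tRNA-guanine transglycosylase gene, whose enzyme puts queuine into tRNA, read 6.15, 6.12, 5.75 and 5.91 in air and 7.14, 5.84, 6.43 and 6.39 in EtOH, with EtOH 1-2 below both WSR-1 air arrays (difference 0.47, SE 0.21).

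Other higher means in this group were smaller or less even. Claudin 3, a tight-junction protein, read 6.08, 6.22, 6.02 and 5.76 in air and 6.59, 6.41, 6.60 and 6.05 in EtOH, and only EtOH 2-2 fell inside the air range (0.39, SE 0.20). The probe titled outer dense fiber of sperm tails 2 stood 0.43 higher (SE 0.19), calmodulin, the calcium sensor, 0.32 higher (SE 0.17), and the probe titled forkhead box D1 0.30 higher (SE 0.16). Calmodulin was 0.72 higher in WSR-1 and -0.08 in WSR-2, so the populations pointed in opposite directions. Ferritin light chain 1, a subunit of the iron store, was among the brightest probes and ran from 10.99 to 11.25 in air and from 11.16 to 11.34 in EtOH (0.16, SE 0.08).

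Among the lower means were both bright and dim genes. Gna11, which couples receptors to phospholipase C, read 8.80, 8.71, 8.91 and 8.87 in air and 8.80, 8.49, 8.33 and 8.63 in EtOH, and only EtOH 1-1 reached the air values (-0.26, SE 0.14). Parotid secretory protein read 11.004, 10.898, 11.154 and 11.267 in air and 10.669, 10.976, 11.004 and 10.827 in EtOH, and the groups overlapped between 10.898 and 11.004 (-0.21, SE 0.10). Aquaporin 7, a channel for water and glycerol, read 5.72, 6.70, 5.67 and 7.23 in air and 5.77, 5.71, 5.70 and 5.92 in EtOH. Air 1-2 and 2-2 were high, the other 6 arrays were near the floor, and the standard error was 0.24 for a difference of -0.56. Sperm associated antigen 6 had the same pair of high air arrays, at 6.97 and 6.63, and read 5.82 and 5.73 on the other air arrays (-0.46, SE 0.22). Blu stood at -0.48 (SE 0.22), the gamma 1 subunit of AMP-activated protein kinase, an energy sensor, at -0.39 (SE 0.19) and subunit 7b of the COP9 signalosome at -0.39 (SE 0.21). For Blu and the kinase subunit the highest array was air 2-2, at 7.38 and 6.78, and for the COP9 subunit it was air 1-2, at 7.03. Histidine triad nucleotide-binding protein stood at -0.27, testis specific gene A8 at -0.26 and the hematopoietically expressed homeobox gene at -0.20.

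Of these 24 genes, 11 of 12 with higher means and 12 of 12 with lower means had the same direction in both populations, where 45.9% of all probes did. The genes were picked on the average of the populations, so that direction is partly fixed by the choice. Unadjusted p ran from 0.0273 to 0.0699 for the higher genes and from 0.0126 to 0.0922 for the lower ones. Groups did not overlap for 3 of the 12 higher and 4 of the 12 lower genes, against 1.24% and 1.26% of all probes. The genes were picked for small p on these same arrays, so this separation too is partly fixed by the choice.

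**Figure D2:**
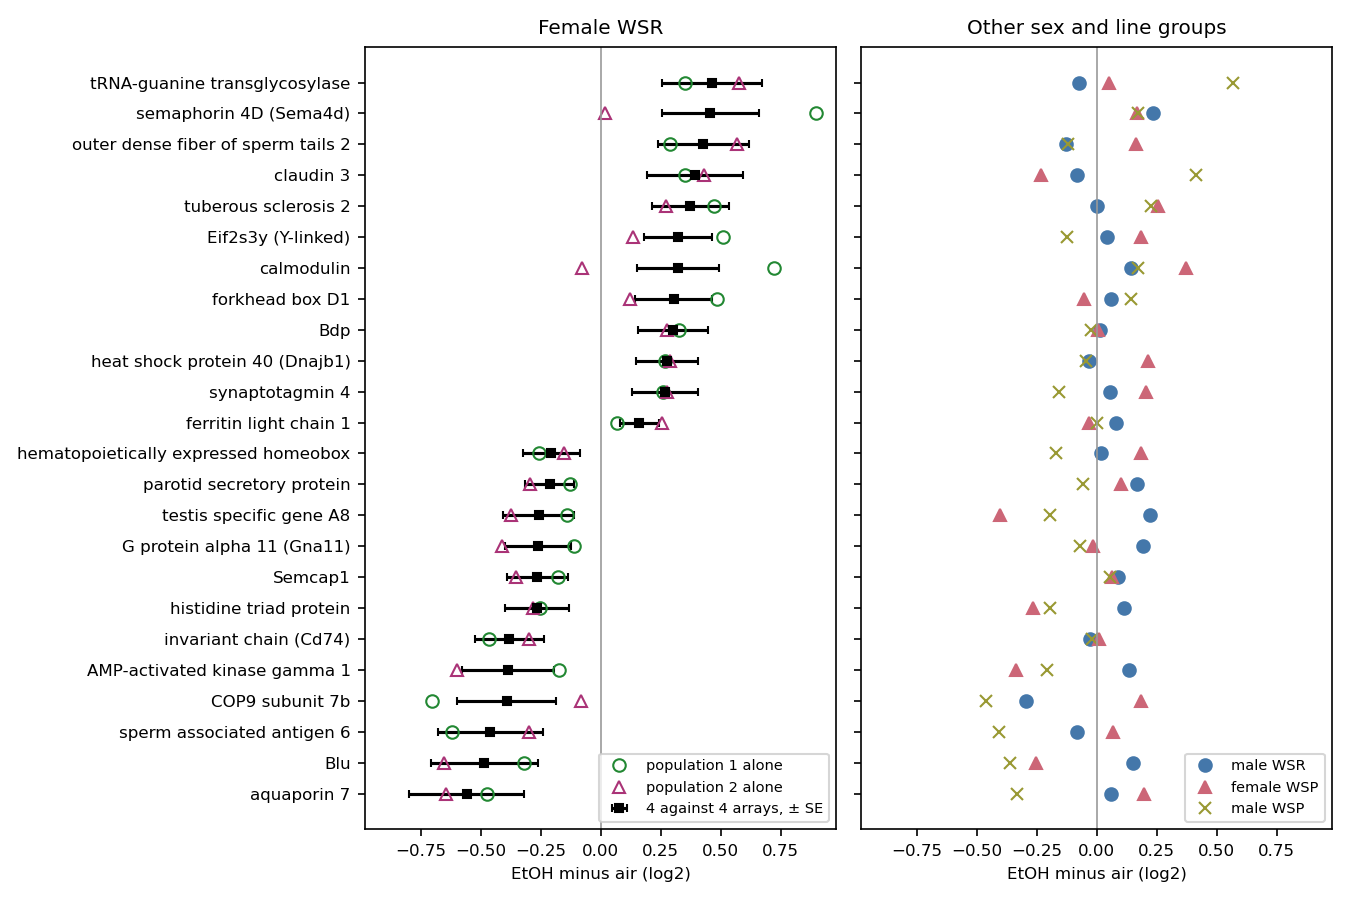
Log2 difference, EtOH minus air, of the 12 named genes per direction with the smallest p in female WSR mice. The left panel gives the difference over 4 against 4 arrays with ± 1 SE and each population alone (2 against 2 arrays), and the right panel gives the same difference in male WSR, female WSP and male WSP mice. The values of both populations lie on the same side of 0 for 11 of 12 higher and 12 of 12 lower genes, and male WSR values scatter around 0, between -0.29 (COP9 subunit 7b) and 0.24 (Sema4d).

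Several of the dim genes with leading differences lay close together on the array. The clones are spotted in 2 fields of 8 grids (a to h) of 30 columns by 12 rows, and the lower right corner of grid d in field 2 held several of them. Tsc2 lay there at column 27 row 9, Hdac1 at column 30 row 9, Rgs2 at column 30 row 11, Eif2s3y at column 21 row 12, Sema4d at column 22 row 12 and the chaperonin gene Cct2 at column 26 row 8. The EST with the smallest p of all probes (0.00113, EtOH minus air 0.35) lay at column 28 row 9, beside Tsc2. The clones spotted around them differed in the same direction. The median difference of the 45 clones within 3 columns and rows of Tsc2 was 0.25, and 44 of the 45 had a higher EtOH mean. The EtOH mean was likewise higher for 25 of 26 clones around Hdac1 (median 0.29), 17 of 18 around Rgs2 (0.33), 26 of 26 around Eif2s3y (0.17) and 25 of 25 around Sema4d (0.25).

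Areas of lower values lay at the bottom of grid a, in grid b and in part of grid c of field 1. Aquaporin 7 and sperm associated antigen 6 were next to each other there, at columns 22 and 21 of row 10 in grid a. Of the 34 clones around aquaporin 7, 4 had a higher EtOH mean, with a median of -0.26. Of the 46 around the COP9 subunit in grid b, 3 did (-0.23). In grid c, 3 of 26 clones around the gamma 1 subunit of AMP-activated protein kinase did (-0.23), and 6 of 39 around testis specific gene A8 (-0.16). Around the histidine triad gene and Blu, also in grid c, the medians were -0.10 and -0.11. Over all clones the neighbourhood median ran from -0.11 (5th percentile) to 0.13 (95th percentile). Of the 24 leading genes, 20 differed in the direction of their neighbourhood median. What set these areas apart was not tested, and the labels give no layout of the grids relative to each other.

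**Figure D3:**
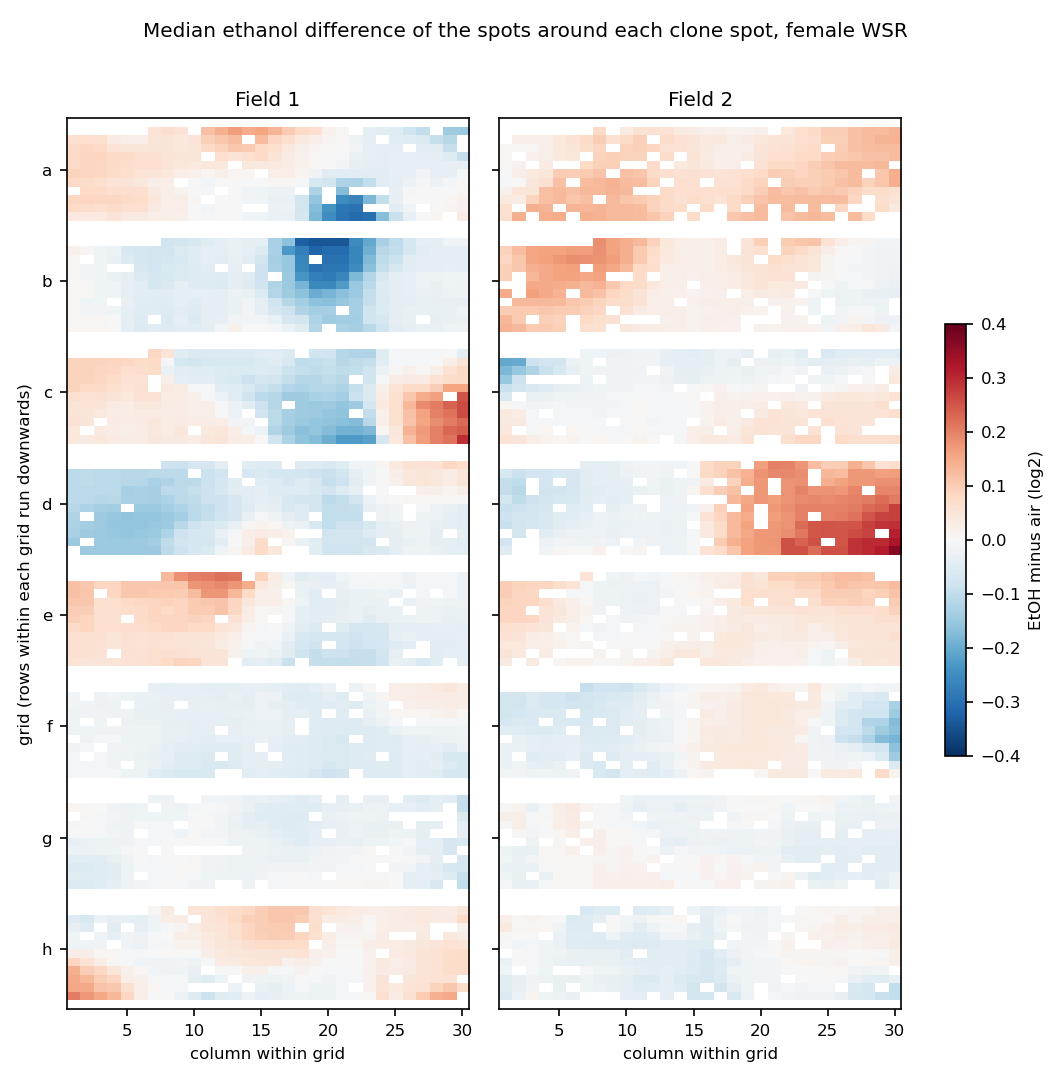
Median log2 difference, EtOH minus air, of the clones within 3 columns and rows of each clone, drawn at its place in fields 1 and 2 and grids a to h of the female WSR arrays (red higher in EtOH, blue lower, white spots without a tested clone). Red fills the right end of field 2 grid d, where Hdac1, Rgs2, Tsc2 and Sema4d lie, and blue fills the middle of field 1 grid b and the end of grid a, where aquaporin 7 lies.

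The leading genes were also computed after subtracting from each clone, on each array, the median deviation of its neighbourhood, an alternative added after the data were seen. Of the 24 genes, 10 shrank by more than 1.5 times or turned. Among these, Tsc2 went from 0.37 to 0.13, Bdp from 0.30 to 0.12 and the COP9 subunit from -0.39 to -0.10. The gamma 1 subunit of AMP-activated protein kinase went from -0.39 to -0.16 and testis specific gene A8 from -0.26 to -0.07. Ferritin light chain 1 went from 0.16 to -0.02. Outside the 24, Hdac1 went from 0.45 to 0.17 and Rgs2 from 0.41 to 0.09. Bright genes were among those that shrank: Bdp and ferritin light chain 1 lie beside each other in field 2 grid b, at columns 6 and 5. Of the clones around them, 24 of 27 and 29 of 32 had higher EtOH means. Several other bright genes kept most of their difference. Cd74 stood at -0.32 (SE 0.13), Dnajb1 at 0.25 (SE 0.13), Syt4 at 0.22 (SE 0.14), Semcap1 at -0.22 (SE 0.11) and Gna11 at -0.27 (SE 0.14). Rpl36 (0.31, SE 0.10), claudin 3 (0.31, SE 0.11) and the tRNA-guanine transglycosylase gene (0.43, SE 0.17) also kept theirs, and no probe was called with this centring either.

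Gene groups were followed through 28 lists, of which 184 genes were on the array. Of these genes, 96 had higher and 88 lower EtOH means, with a median difference of 0.0076, against 2348 higher and 2348 lower and a median of 0.000018 over all probes. At an unadjusted p under 0.05 stood 6 with higher means (3.26%, against 1.64% of all probes) and 1 with a lower mean (0.543%, against 1.36%). The 6 were Hdac1, Dnajb1, Rpl36, Rgs2, Sema4d and Eif2s3y, and 4 of them lie in grid d of field 2 as described above. The 1 lower gene was Cd74. After adjustment over all probes, 0 of the 184 passed.

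Chaperones had the highest list median, at 0.11 over 6 genes, 3 with higher and 3 with lower means. Beside Dnajb1, the chaperonin subunit genes Cct2 (0.22, SE 0.11) and Cct6a (0.31, SE 0.26) had the higher means. Cct2 was set by EtOH 1-1 at 6.57, with 5.89 to 5.92 on the other EtOH arrays, and it read 0.02 after local centring. Hspa4 (-0.03), Tcp1 (-0.03) and the mitochondrial co-chaperone Hspe1 (-0.01) stood near 0. In the endoplasmic reticulum and integrated stress response list, 3 of 5 genes had higher means (median 0.06), and Ddit3, a transcription factor induced by unfolded proteins, was the bright one at -0.15 (SE 0.10). Ddit3 read 9.45, 9.54, 9.36 and 9.54 in air and 9.37, 9.33, 9.37 and 9.22 in EtOH, with EtOH 1-1 and 2-1 just inside the air range, and its direction turned with median scaling (0.06). Xbp1 and Ppp1r15a, of the same response, were high on EtOH 2-1 alone, at 6.98 and 6.72, with the other 7 arrays between 5.74 and 5.94.

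Of 15 histone and chromatin genes, 11 stood higher in EtOH (median 0.03), mostly by little. After Hdac1 came Hmga1, an architectural protein of chromatin, at 0.24 (SE 0.16), set by EtOH 2-1 at 6.71, and the histone gene H3f3b at 0.21 (SE 0.16), set by EtOH 1-1 at 6.57. Other deacetylases on the array, Hdac5 and Hdac6, stood at 0.03 (SE 0.11) and 0.02 (SE 0.10). The co-repressor Sin3b, which recruits Hdac1, read 8.05, 8.51, 8.17 and 8.34 in air and 8.23, 8.46, 8.43 and 8.53 in EtOH, with overlap (0.15, SE 0.19).

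Antigen presentation and cell surface immune genes did not follow Cd74 as a group: 8 of 14 had higher and 6 lower means, with a median of 0.04. The class II genes H2-Aa (0.14, SE 0.13) and H2-Eb1 (-0.11, SE 0.13), whose products Cd74 chaperones, stood on opposite sides and were dim. Of the other members, the galectin gene Lgals1 stood at 0.16 (SE 0.16) and complement C3 at -0.11 (SE 0.14). Among 9 cytokine, NF-kB and interferon genes, 5 had higher means (median 0.03). The endotoxin receptor gene Tlr4 stood at 0.25 (SE 0.14), lies in grid d of field 2 and read 0.07 after local centring.

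Synaptic genes were centred near 0. Of 6 glutamate genes 3 had higher means (median 0.02), led by the glutamine synthetase gene Glul at 0.21 (SE 0.16), and the NMDA receptor subunit gene Grin1 stood at 0.05 (SE 0.18). For the GABA system, the vesicular transporter gene Slc32a1 stood at 0.09 (SE 0.13) and the GABA-B receptor gene Gabbr1 at -0.04 (SE 0.19). Syt4 was the 1 of 6 synaptic vesicle genes with a higher mean (median -0.03), and the vesicle fusion gene Vamp2 stood at -0.23 (SE 0.17). Of 9 ion channel and calcium genes 5 had higher means (median 0.02), with Itpr1, the calcium release channel, at 0.19 (SE 0.10) through EtOH 2-1. Of 4 neuropeptide and monoamine genes 1 had a higher mean (median -0.05), and chromogranin B ran from 10.46 to 10.73 in air and from 10.57 to 10.80 in EtOH.

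Of 11 immediate early genes, which neurons switch on within minutes of activity, 5 had higher and 6 lower means (median -0.01). Myc stood at 0.28 (SE 0.21) and Ier3 at -0.37 (SE 0.30), the latter through air 2-2 at 7.61. Egr1 stood at 0.11 (SE 0.15), with EtOH 2-1 at 6.38 and the other 7 arrays between 5.72 and 5.83. Jun (0.01, SE 0.13), Fosl2 (0.00, SE 0.08) and Nr4a2 (-0.02, SE 0.17) stood near 0. In G protein and cAMP signalling, 3 of 8 genes had higher means (median -0.05), with Rgs2 and Gna11, which act in the same pathway, on opposite sides.

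Of 8 ribosomal and translation genes 5 had higher means (median 0.03), with Rpl36 the highest. This list differed most between the populations, with a median of -0.22 in WSR-1 and 0.21 in WSR-2. Of 8 respiratory chain genes 5 had higher means (median 0.04), led by Cox6a1 at 0.33 (SE 0.21), through EtOH 2-1 at 6.97, and Ndufa2 at 0.31 (SE 0.17). Of 15 cell cycle genes 8 had higher means (median 0.01). The cyclin gene Ccnd3 read 6.46, 6.47, 6.21 and 6.40 in air and 6.66, 6.73, 6.65 and 6.49 in EtOH, with no overlap (0.25, SE 0.16). Of 6 lipid genes 4 had lower means (median -0.07). The cholesterol exporter Abcg1 read 8.29, 8.23, 8.30 and 8.19 in air and 8.18, 8.09, 8.01 and 7.91 in EtOH, so it too was separated (-0.20, SE 0.12). Its direction turned with median scaling (0.07) and in the authors' deposited log2 values (0.04).

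The remaining lists showed less. Of 11 cytoskeleton genes 5 had higher means (median -0.0031). The dynein chain gene Dync1i1 stood at -0.28 (SE 0.17) through air 1-2 at 6.69, and read -0.03 after local centring. Of 8 glucocorticoid and steroid genes 2 had higher means (median -0.05), with the thyroid hormone deiodinase gene Dio2 lowest at -0.10 (SE 0.16). Of 5 apoptosis genes 2 had higher means (median -0.06), with Api5 at 0.16 (SE 0.16), and of 9 ubiquitin and proteasome genes 6 did (median 0.01), with Psmb5 highest at 0.13 (SE 0.12). Of 3 antioxidant and ethanol metabolism genes 2 had higher means (median 0.02). Cyp2e1, an ethanol-oxidising enzyme that ethanol stabilises in liver, ran from 5.85 to 6.13 in air and from 5.84 to 6.34 in EtOH. Its difference was 0.04 (SE 0.18).

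Markers of cell types were checked in the same arrays. The neuron markers Thy1 and Ina were above background on 4 and 8 of the 8 arrays, and both had higher EtOH means (0.10 for each, SE 0.11 and 0.13). Their summed signal was 132 to 154 in air and 137 to 166 in EtOH. As in every sum given here, this includes the offset of 50 for each probe, which weighs most where markers are dim. Of 4 oligodendrocyte markers, 3 had lower means (median -0.11), led by quaking (Qk), an RNA-binding protein of myelinating cells, at -0.38 (SE 0.23) and Enpp2 at -0.19 (SE 0.13). After local centring Qk read -0.23 (SE 0.15) and Enpp2 -0.20 (SE 0.15), and the neighbourhood median of Qk was -0.18. Enpp2 read 9.84, 9.81, 9.65 and 10.16 in air and 9.67, 9.72, 9.63 and 9.68 in EtOH, with air 2-1 inside the EtOH range. The summed oligodendrocyte signal was 1024 to 1397 in air and 988 to 1026 in EtOH. Most of it came from Enpp2, which was highest on air 2-2 at 10.16, so the sum shows little about the other markers. Nkx6-2 was not above background on any array. Of 5 astrocyte markers 3 had higher means (median 0.03), and of 3 vascular markers 1 did (median -0.00014).

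Markers of tissue outside the cortex were also present. Of 5 choroid plexus, blood and striatum or olfactory bulb markers, 4 had higher means (median 0.02). Their summed signal ran from 2478 to 2761 in air and from 2415 to 2920 in EtOH, most of it from transthyretin (Ttr) and hemoglobin alpha, so the ranges overlapped. Transthyretin, made by the choroid plexus, read 10.34 on EtOH 1-2 and 9.61 to 9.79 on the other 7 arrays. The striatal and olfactory bulb marker Dlx5 was above background on 1 of 8 arrays. The probe titled with the Y-linked gene Eif2s3y ran from 5.86 to 6.83 in the 16 female arrays and from 5.99 to 6.78 in the 16 male arrays, so it did not separate the sexes and its difference cannot be read as that gene's. Of 3 sex-linked genes, 1 had a higher mean (median -0.02).

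**Figure D4:**
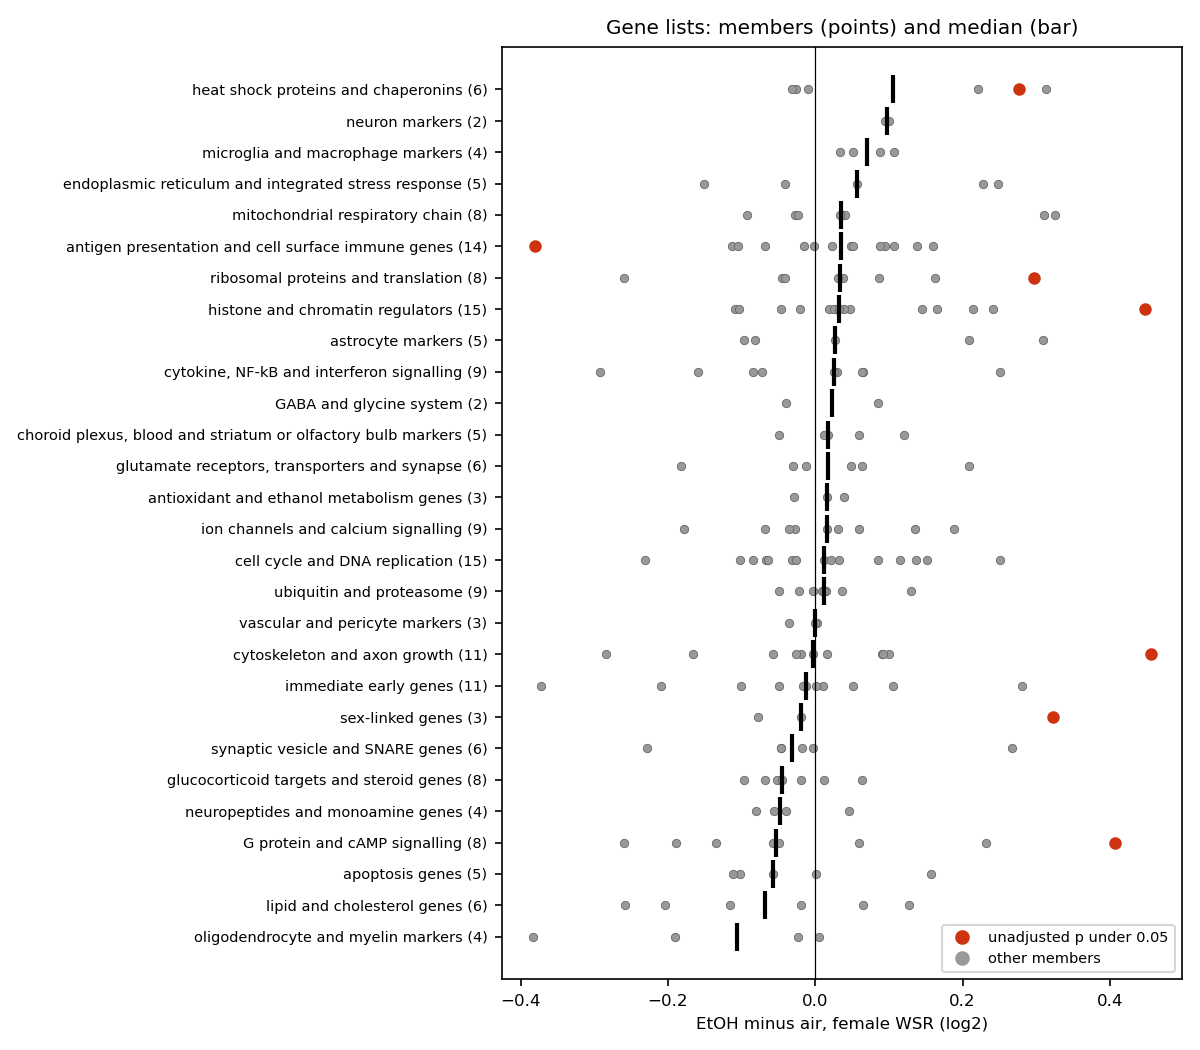
Log2 difference, EtOH minus air, in female WSR mice for the measured genes of 28 lists (number of genes in brackets), each point a gene and each black bar the list's median, with genes at an unadjusted p under 0.05 in red. List medians lie between -0.11 (oligodendrocyte and myelin markers) and 0.11 (heat shock proteins and chaperonins), and single genes spread on both sides of 0 in most lists.

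The ethanol differences of WSR-1 and WSR-2 females were set side by side, and the test of their difference called no probe. Over the 2348 brighter probes, the WSR-1 and WSR-2 differences had a Pearson r of -0.0464 and a Spearman rho of -0.0371, across probes that are not independent. With 2 arrays per group and the spread pooled over all 32 arrays, 1 probe was called in WSR-1 (lower, limma adjusted p = 0.0193, 0.0213% of probes) and 2 in WSR-2 (higher, limma, smallest adjusted p = 0.000113, 0.0426%). The clearest was an EST weakly similar to the histone methyltransferase NSD1, at field 1 grid c column 29 row 10. It read 5.77, 5.86, 5.79 and 5.84 in air and 6.16, 5.84, 7.07 and 7.16 in EtOH. Both WSR-2 EtOH arrays stood far above the other 6, a difference of 1.30 in WSR-2 against 0.18 in WSR-1, and 28 of the 28 clones around it also had higher EtOH means (median 0.21).

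The second WSR-2 probe, an EST at column 29 row 12 of grid d in field 2, belonged to the area around Hdac1. It read 6.37 and 6.44 on the WSR-2 EtOH arrays and 5.75 and 5.72 on the WSR-2 air arrays (0.67 in WSR-2, 0.07 in WSR-1). The WSR-1 probe, an EST at field 2 grid f column 28 row 8, read 6.70 and 6.43 on the WSR-1 air arrays and 5.69 to 5.87 on the other 6 (-0.73 in WSR-1, -0.02 in WSR-2). With the 8 female WSR arrays alone in the fit, 0 probes were called in either population. Leaving out 1 array moved the WSR-1 count to 0 (EtOH 1-1), 14 (EtOH 1-2) or 2 (air 2-1 or air 2-2), and the WSR-2 count to 13 (air 2-1), 1 (air 2-2) or 6 (EtOH 2-2). The test of the difference between populations called 0 probes (limma, smallest adjusted p = 0.0736), with 233 at an unadjusted p under 0.05, and 1 without air 1-2 or without air 2-1.

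Named genes with the widest gaps between populations were a mixture of transcription, growth and transport genes. The gene titled TGFB inducible early growth response (Klf10), a transcription factor, read 6.97 and 6.69 in WSR-1 air and 6.14 and 6.08 in WSR-1 EtOH. In WSR-2 it read 6.30 and 6.27 in air and 6.47 and 6.70 in EtOH, so the order of the treatments turned (-0.72 against 0.30, difference 1.02, limma adjusted p = 0.37). Fibroblast growth factor 12, which binds sodium channels, behaved likewise, at -0.85 in WSR-1 and 0.44 in WSR-2. Male enhanced antigen 1 (-0.49 and 0.96) and ARS component B (-0.07 and 1.06) turned on EtOH 2-1, which read 7.77 and 7.81. The glucose transporter gene Slc2a2 (-1.03 and 0.03) turned on air 1-2, which read 7.63 where the other 7 arrays read 5.66 to 5.98. Slc2a2 lies in field 1 grid b, where 0 of the 26 clones around it had a higher EtOH mean (median -0.34). Over both populations it went from -0.50 to -0.18 with local centring. Male enhanced antigen 1 and ARS component B are neighbours in field 1 grid c, at column 29, rows 5 and 6. With local centring the smallest adjusted p of the population test was 0.9 (limma).

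Sex and line were compared by testing the difference between ethanol effects. Female WSR minus male WSR called 0 probes (limma, smallest adjusted p = 0.976), with 220 at an unadjusted p under 0.05. Female WSR minus female WSP called 0 (limma, smallest adjusted p = 0.899), with 239. Glul, which turns glutamate into glutamine in astrocytes, had the smallest p among the brighter titled genes of the sex comparison. It stood at 0.21 in female WSR and -0.52 in male WSR (difference 0.73, SE 0.22, limma adjusted p = 0.976). Its female air values were 8.98, 9.08, 8.86 and 8.59 and its EtOH values 8.94, 9.28, 9.10 and 9.02. Gpr26, an orphan receptor, stood at 0.23 in females and -0.31 in males. Its female difference came from WSR-2, at 0.52, with -0.05 in WSR-1. Abcg1 stood at -0.20 in females (-0.12 in WSR-1, -0.28 in WSR-2) and 0.23 in males. Rgs2 stood at 0.41 in females and -0.28 in males (difference 0.69, SE 0.19), on the array area described above.

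The 24 leading genes were also followed in the other groups. Of the 12 with higher means, 7 had the same direction in male WSR, 9 in female WSP and 6 in male WSP, where 44.1%, 66.8% and 51.8% of the 1171 brighter probes with higher female WSR means did. Of the 12 with lower means, 3, 5 and 11 had the same direction, where 44%, 48% and 55.5% of the 1177 brighter probes with lower means did. The 11 in male WSP cannot be read as an independent repeat. Female WSR air 2-1 and air 2-2 share high probes with male WSP air 2-2 and air 2-1, as described below. How far this sharing bears on the count was not tested. Cd74 stood at -0.03 in male WSR and 0.01 in female WSP, and Dnajb1 at -0.03 and 0.21. The differences of these effects did not pass (Cd74 against male WSR -0.35, SE 0.20, limma adjusted p = 0.976). In the line comparison, the calcineurin inhibitor gene titled myocyte-enriched calcineurin interacting protein 1 stood at 0.07 in female WSR and -0.32 in female WSP, and the peptide-amidating enzyme gene Pam at 0.11 and -0.42. The interferon-induced GTPase gene Gbp2 stood at 0.03 and -0.64, and Spo11 at 0.06 and 0.67, so in each of these 4 genes the WSP difference was the larger. Because WSP-2 mice received a higher ethanol dose, line and dose are partly confounded in this comparison.

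Over the 2348 brighter probes, female and male WSR differences had a Pearson r of -0.168 (Spearman -0.192), and female WSR and female WSP differences one of 0.171 (Spearman 0.191). Single arrays of different groups that share patterns stand beside these values. The 192 control spots named tgDNA, which carry no clone, were used to find for each female WSR array the most similar array of another group. For EtOH 2-1 this was male WSR air 2-2 (Spearman 0.597 over 192 spots), and for EtOH 2-2 it was male WSR air 2-1 (0.639). Air 1-2 was nearest to male WSR air 1-2 (0.454), EtOH 1-1 to male WSR EtOH 1-2 (0.455), air 2-1 to male WSP air 2-2 (0.451) and air 2-2 to male WSP air 2-1 (0.437). The other two were nearest to arrays of the other female WSR treatment, air 1-1 to EtOH 1-2 (0.216) and EtOH 1-2 to air 1-2 (0.392).

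For 6 of the 8 arrays, most probes that were high on that array alone were also highest, within its group, on the partner array. On EtOH 2-1, 133 probes stood more than 0.5 above the other 3 EtOH arrays. Of these, 127 (95.5%) were also highest within the male WSR air group on array 2-2, where 22.9% of all probes were. The share was 94.4% of 72 probes for air 1-2 (23.2% of all probes), 91.1% of 101 for air 2-2 (26.4%), 83.3% of 36 for EtOH 2-2 (26.4%), 80.9% of 47 for air 2-1 (21.6%) and 72.6% of 124 for EtOH 1-1 (23.1%). It was 39.6% of 91 probes for EtOH 1-2 (24% of all probes). For air 1-1 it was 15.3% of 59, below the 32.3% of all probes.

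Named stress and growth genes belonged to this pattern. Xbp1 read 6.98 on female EtOH 2-1 and 6.67 on male air 2-2, with 5.79 to 5.80 and 5.85 to 5.88 on the other arrays of those groups. Egr1 read 6.38 and 6.52 on the same arrays, Ppp1r15a 6.72 and 6.57, Cox6a1 6.97 and 7.03, and the chromatin remodelling gene Smarce1 6.69 and 6.70. The EtOH minus air difference of Xbp1 was 0.25 in female WSR and -0.30 in male WSR. Itpr1 stood at 0.19 and -0.32, but it read 6.20 on male air 2-2 with 5.93 to 6.19 on the other male air arrays, so the partner array hardly stood out for it. The labels name no shared batch for these arrays, and the cause of the likeness was not tested.

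**Figure D5:**
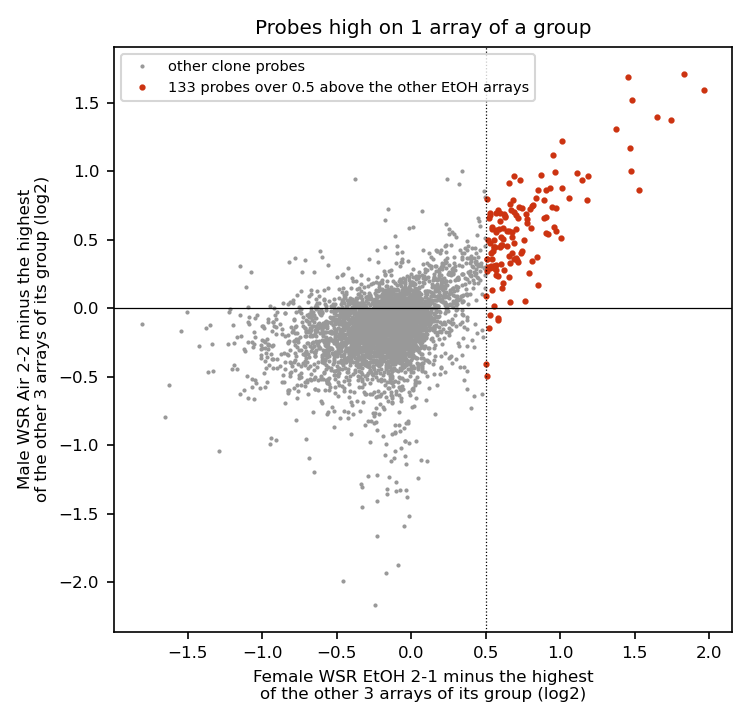
Each point is 1 of 4696 clones: the horizontal axis is its log2 signal on female WSR EtOH 2-1 minus the highest of the other 3 EtOH arrays, and the vertical axis the same for male WSR air 2-2 within its group. Of the 133 clones beyond 0.5 on the horizontal axis (red), 127 lie above 0 on the vertical axis.

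Some of the brightest titled probes varied little, while ferritin light chain 1 and parotid secretory protein, of similar level, were among the leading genes described above. The gene titled ubiquitin fusion degradation 1 like, whose product helps to extract proteins for destruction, ran from 10.97 to 11.26 over the 8 arrays (difference -0.01, SE 0.09). WW domain binding protein 1 stood at 0.14 (SE 0.09) and Baf53a, an actin-related subunit of chromatin remodelling complexes, at 0.10 (SE 0.13). For 4 genes with 2 probes each, the probes did not always point the same way: Cdk2 stood at 0.11 and -0.10, Ndufv1 at -0.02 and 0.09, Hba-a1 at 0.02 and -0.02, and both Atp1b1 probes were lower (-0.18 and -0.08). A cDNA spot also binds transcripts of close paralogues, so values of calmodulin, ferritin, hemoglobin and histone probes may combine related genes.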

How the data were processed

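Each array held cDNA from a pool of 2 mice, labelled with 33P by oligo-dT priming, per the labels' protocols. The sources used here do not name the imager, its software or the array maker. The deposited intensity of each spot, per the file headers, stands beside 1 background value for the whole array, and the authors had not subtracted it. A second table holds the authors' deposited log2 values, which keep the rank order of the intensity (Spearman 1), have array medians of 7.46 to 8.63 and are blank for spots below background; their scale and centring are unknown.

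Intensities were background-corrected by normexp (offset 50), quantile-normalised over all 32 arrays and tested on the log2 scale with limma 3.58.1 in R 4.3.3 (lmFit, eBayes with trend, Benjamini-Hochberg, threshold 0.05). One fit held all 8 groups, so that they share the spread (24 residual degrees of freedom), and population contrasts used 16 means of group and population. Of 5355 spots, 4696 carry a clone and were tested; 192 are control spots and 467 have no identity. A probe counts as above background where its intensity exceeds the array's value. Array measures were compared by exact permutation. The calls were tested on simulated data before use, and figures were drawn with matplotlib 3.10.9.

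The labels give separate pools but not separate cages or days. In the main fit, p-values measure the spread between pools together with that between the populations of a line. In the population contrasts they measure the spread between pools. Named genes are the 12 titled probes per direction with the smallest p at or above the median level, 2 to 4 members per list with the smallest p, the 10 brightest titled probes, and those with the widest population gap. Brighter probes are those at or above that median. Other genes, the probes with the smallest p of all, the leaders of the sex and line comparisons and the single-array genes were added after their values were seen. The members and lists were chosen with earlier results of these data known. Gene titles are those of the array and were matched to current symbols by hand, and 184 list genes were on the array. Pairing comes from the labels: arrays 1-1 and 1-2 of both treatments are WSR-1, and 2-1 and 2-2 are WSR-2. The population difference in air and in EtOH correlated across 4696 probes with r = 0.213. Alternatives covered background correction, normalisation, probe filters, the variance model, the authors' values, the population as a block and leaving out each array. Local centring (window of 3 spots) and the alternatives for the single populations and for the array measures were added after the data were seen. Some single genes are not reported here but stay in the fits and list counts.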

Additional observations from a re-analysis of the deposited data

Results flagged for a closer look

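For 16 of 152 groups of 4 arrays (10.5%), 1 array of female WSR mice stood apart from the other 3 of its treatment by Dixon's test, where chance alone gives about 1 group in 20. The genes were partly chosen for small p or wide gaps in these same arrays, so the share cannot be read against chance. All 16 stood apart on the high side, and 5 were EtOH 2-1, 5 EtOH 1-1, 2 air 2-1, 2 air 1-2, 1 air 2-2 and 1 EtOH 2-2.

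On EtOH 2-1, the stress-response factor Xbp1 read 6.979 (others 5.786 to 5.8), the chromatin protein gene Hmga1 6.712 (5.75 to 5.859) and the calcium channel gene Itpr1 6.428 (5.791 to 5.873). The neurofilament-type gene Ina read 6.707 there (6.293 to 6.314) and male enhanced antigen 1 (Mea1) 7.767 (5.77 to 6.02).

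On EtOH 1-1, Sema4d read 7.187 (others 5.924 to 6.116), Cct2 6.571 (5.89 to 5.923), the antioxidant regulator gene Nfe2l2 5.951 (5.81 to 5.826), the receptor gene Fgfr3 7.033 (5.813 to 5.943) and Psmb5 6.466 (5.729 to 5.831). On EtOH 2-2, the cell survival gene Dad1 read 6.106 (5.815 to 5.829).

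Among air arrays, air 2-1 stood high for Xbp1 at 5.936 (5.802 to 5.825) and for Cox6a1 at 6.02 (5.846 to 5.864). Air 1-2 stood high for the COP9 subunit at 7.031 (6.014 to 6.175) and for Slc2a2 at 7.626 (5.79 to 5.885), and air 2-2 for Ier3 at 7.607 (5.861 to 6.11).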

How the results depend on the processing

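No probe was called between EtOH and air, or in the sex and line comparisons, under any alternative run. The count at an unadjusted p under 0.05 (141 of 4696 probes) was 73 with median scaling and 92 with cyclic loess. It was 50 of 2111 in the authors' values, 86 of 2348 at or above the median level, and 93 to 192 leaving out single arrays. Counts from settings that tested fewer probes are to be read against those totals. In the authors' values the median difference of the 2111 probes tested was 0.122, a shift against which its calls stand. With the population as a replicate block it was 141 and 0 were called, and this pairing changed no call of the adjusted test. Probes without overlap (117 of 4696) were 67 with median scaling and 53 of 2111 in the authors' values. They were 71 of 3057 probes above background on at least 16 of 32 arrays, and 60 of 2348 at or above the median level. Without single arrays they were 173 to 298, where fewer values make separation easier. Calls of the population difference (0) were 2 without background correction, 2 with offset 16, 1 and 3 under the same 2 filters, 2 with robust variances and 0 to 1 without single arrays. The WSR-1 count (1) was 0 under median scaling, cyclic loess, no background correction, offset 16, local centring, the authors' values, both filters and the 8 arrays alone, 2 with robust variances, and 0 to 14 without single arrays. The WSR-2 count (2) was 6 with median scaling, 7 with cyclic loess, 1 without background correction, with local centring and under each filter, 0 in the authors' values and on the 8 arrays alone, 6 with robust variances, and 1 to 13 without single arrays. Without single arrays, the EtOH minus air difference of the array background was 0.813 to 2.3, of the share above background 0.705 to 7.77 and of the median signal 0.171 to 0.287.

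Of 68 genes followed, 41 kept their direction in all settings, and the lowest adjusted p of any was 0.202. Directions turned, with the cause not tested, as follows. Local centring gave ferritin light chain 1 -0.0249, Slc32a1 -0.0098, Gabbr1 0.0732, Chgb -0.181, Ina -0.0439 and Kcnj8 0.00542. WSR-2 alone gave calmodulin -0.0776, Gabbr1 0.0298, Tlr4 -0.00103, Cyp2e1 -0.177, Thy1 -0.0328, Kcnj8 0.0268, Col4a1 -0.0174, Ttr -0.0491, Dlx5 0.0114, Psmd13 0.115 and Cdkn1c 0.00433. Median scaling gave Gabbr1 0.229, Ddit3 0.0579, Cyp2e1 -0.000143, Dio2 0.157, Kcnj8 0.0113, Col4a1 -0.00719 and Abcg1 0.0654. The authors' deposited values, normalised again, gave Gabbr1 0.229, Dio2 0.183 and Abcg1 0.0387. WSR-1 alone gave Myc -0.0567, Ier3 0.0301, Xbp1 -0.0131, Hmga1 -0.00747, Nfe2l2 0.0136, Api5 -0.0722, Dio2 0.0327, Atp1b1 0.00386 and Ina -0.0201. Cyclic loess gave Kcnj8 0.00847. Without single arrays the ranges were -0.309 to 0.0486 for Homer3, -0.178 to 0.112 for Gabbr1, -0.546 to 0.0354 for Ier3, -0.0487 to 0.349 for Xbp1, -0.0688 to 0.00272 for Nfe2l2, -0.0579 to 0.111 for Cyp2e1, -0.0044 to 0.0829 for Chgb and -0.00088 to 0.141 for Ina. They were -0.0743 to 0.0182 for Kcnj8, -0.0519 to 0.0394 for Col4a1, -0.04 to 0.205 for Ttr, -0.0417 to 0.204 for Psmb5 and -0.112 to 0.0318 for Psmd13. Of 503 list medians under alternatives, 40 moved by more than the SD of the list between arrays of a group. Most probes lie near background, which limits what differences these arrays can show.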
